A study of Mus musculus with 8 samples.

Results

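Mcts2, Zrsr1 and Nnat are imprinted mouse genes that each lie inside an intron of a longer host gene, H13, Commd1 and Blcap respectively. CpG cytosines were taken from 2 kb upstream of the start site to the end of each intronic gene, by its RefSeq record on mm10 (GRCm38), and were compared with the remaining cytosines of the host. Of 2130064 cytosines read in all 8 samples, 63 lay in the Mcts2 region, 141 in the Zrsr1 region and 61 in the Nnat region, 265 in all, while 103 lay in the rest of H13, 51 in the rest of Commd1 and 29 in the rest of Blcap, 183 in all. The samples were type A spermatogonia, by their labels, sorted by the surface protein CD49f from F1 C3H/HeN males at postnatal day 6. Dams (F0) of the 4 control samples drank tap water, and dams of the 4 arsenic samples drank 85 ppm sodium arsenite from gestational day 8 to 18. The 8 testes of 4 mice were pooled into each sample, so levels of single animals cannot be read from them. Methylation was measured by reduced representation bisulfite sequencing (RRBS), which cuts DNA at CCGG with MspI and reads a methylated cytosine as C and an unmethylated one as T. The methylation level of a cytosine is the percentage of its reads that kept the C, and the average methylation level of a region is the mean over its cytosines.

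Mcts2 and Zrsr1 are retrogenes, copies of a spliced transcript that were put back into the genome without introns, and Nnat encodes neuronatin, a small membrane protein. Mcts2 belongs to the family of MCTS1, a protein that takes part in translation reinitiation, and Zrsr1 to that of the U2 auxiliary splicing factors. Among the hosts, H13 encodes the signal peptide peptidase, Commd1 a protein of copper and NF-kappaB homeostasis, and Blcap a small protein first described in bladder cancer. The start of each intronic gene is known to acquire methylation in the oocyte, to keep it on the maternal allele in somatic cells and to lose it in the germ line, and in males it is not put back. The transcribed copy is therefore the paternal one. In somatic cells a level near 50% is what 1 methylated allele of a pair gives.

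The sequence around the start of each gene shows what the readout rests on. The stretches are from GRCm38 and carry in capitals the CpG of the covered cytosine nearest to the start site, on the strand on which it was read.
Mcts2, chr2:152687134-152687163, minus strand: ccgttgtcgctaacCGgaagacggtccgac
Zrsr1, chr11:22971985-22972014, minus strand: ttacgtctttactcCGggaaaggcaggcct
Nnat, chr2:157560084-157560113, plus strand: taaggcacggccacCGgggctgcggcattg
All 3 of these cytosines lie in a CCGG, the site that MspI cuts. That of Mcts2 is 1 base inside the exon, that of Zrsr1 is 5 bases before the start site and that of Nnat is 20 bases inside the first exon.

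At the cytosine nearest to the Mcts2 start the level was 75.5, 34.7, 65.4 and 64.1% in control samples 1 to 4 and 34.1, 67.6, 52.2 and 54.5% in arsenic samples 1 to 4, at 37 to 53 reads. The nearest to the Zrsr1 start was at 50, 73.9, 60 and 45.5% in the control samples and at 25, 85.7, 53.3 and 50% in the arsenic samples, at 11 to 30 reads. For Nnat the values were 71.4, 60, 90.9 and 31.3% in the control samples and 16.7, 44.4, 58.3 and 73.9% in the arsenic samples, at 11 to 27 reads. The groups overlapped at all 3 cytosines. Arsenic sample 1 was the lowest at each of them, while the highest was a control sample in Mcts2 and Nnat and arsenic sample 2 in Zrsr1. Counting error was large at such coverage. The 95% Wilson interval of the Nnat cytosine was 4.70% to 44.8% in arsenic sample 1 and 62.3% to 98.4% in control sample 3. These intervals cover counting error only, since reads copied from the same molecule cannot be recognised.

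TGCCGC, the motif known to be bound by ZFP57, a factor that keeps imprints methylated after fertilization, was searched on both strands of the 3 regions. The Mcts2 region held 3 matches, all on the plus strand and within 278 bases before the start site. Zrsr1 held 2 matches, both on the minus strand in its coding sequence, and Nnat held 8 matches, 4 on each strand. Of all 32851 RefSeq promoter stretches of 300 bases (GRCm38.p6, 250 before to 50 after the start), 11.6% held the motif. The promoter stretches of Mcts2 and Nnat held 1 match each and that of Zrsr1 held none. A match is a description of the letters and not a binding site. The matches with a covered CpG that are nearest to the start site of Mcts2 and of Nnat are shown with the motif in capitals.
Mcts2, chr2:152686889-152686918, plus strand: cgcgcgagagccTGCCGCagcttggcgcat
Nnat, chr2:157560093-157560122, minus strand: tgctgggcgcaaTGCCGCagccccggtggc
The CpG of this match was at 65.2% ± 7.54 (SD, n = 8 samples) in Mcts2 and at 56.9% ± 15.9 in Nnat. Over all matches with a covered CpG the mean level was 65.5% at 6 cytosines of Mcts2, against 59.5% at the other 57, and 61.6% at 6 cytosines of Nnat, against 63.7% at the other 55. Neither CpG of the 2 Zrsr1 matches was covered.

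The 3 intronic genes were all at intermediate methylation in every sample. Average levels of the Mcts2 region were 59.5, 51.9, 65.3 and 69.6% in control samples 1 to 4 and 59.4, 55.5, 56.3 and 63.4% in arsenic samples 1 to 4. The Zrsr1 region was at 53.5, 53.6, 50.4 and 49.7% in the control samples and at 53.7, 51.9, 48.4 and 53.4% in the arsenic samples. In the Nnat region the control samples were at 68.1, 63.7, 67.9 and 58.6% and the arsenic samples at 54.6, 58.6, 60.9 and 75.3%. The groups overlapped in all 3 regions. Arsenic sample 4 was the highest of the 8 in the Nnat region and control sample 2 the lowest in the Mcts2 region. The region average of Zrsr1, over the most cytosines, varied least between samples. The order of the means was Nnat at 63.5% ± 6.69 (SD, n = 8), Mcts2 at 60.1% ± 5.74 and Zrsr1 at 51.8% ± 2.09. Nnat and Mcts2 did not differ beyond the spread of their difference (3.35 points ± 7.98), and their order turned when the 8 Nnat cytosines in the last exon of Blcap were left out, with Nnat then at 59.3%. Zrsr1 was 8.31 points ± 6.70 lower than Mcts2, with Mcts2 higher in 7 of 8 samples.

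**Figure D1:**
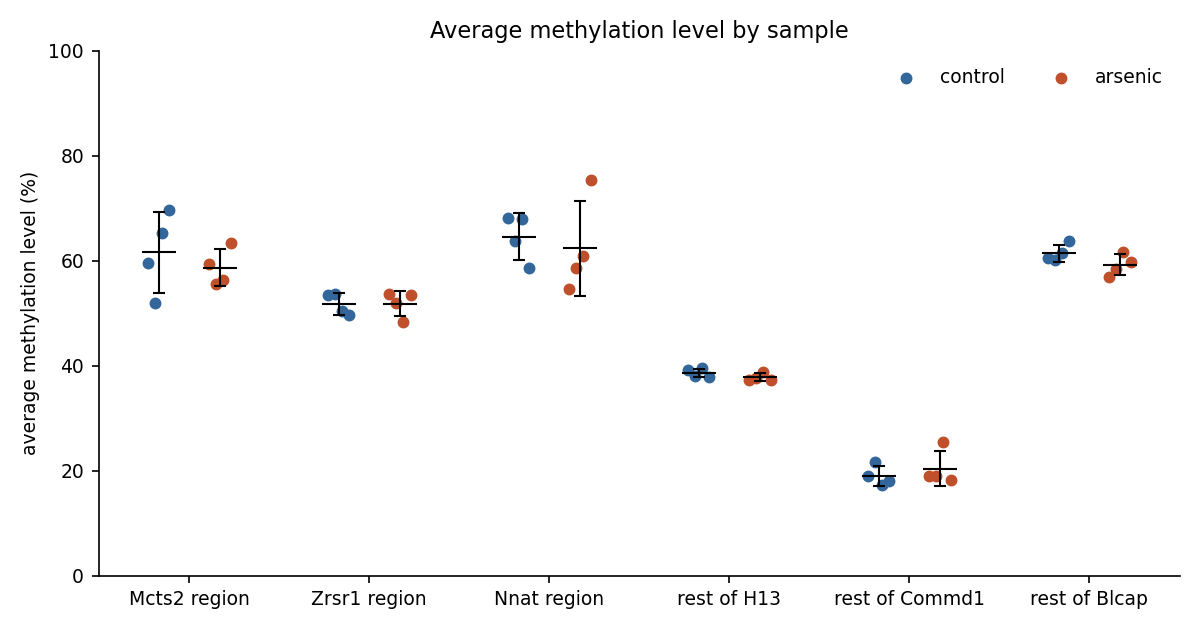
Average methylation level (%) of the 3 intronic gene regions and of the rest of their hosts, for control (blue) and arsenic (orange) samples. Points are samples and bars are the mean ± SD (n = 4), and the groups overlap in each of the 6 regions.

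Intermediate levels marked nearly every covered cytosine of the 3 genes. All 63 cytosines of the Mcts2 region and all 141 of the Zrsr1 region had a mean level of 20 to 80%, and 54 of the 61 in the Nnat region did. In the rest of H13, Commd1 and Blcap the share was 31.1%, 11.8% and 3.45%, and in the whole series 23.4%. Single cytosines of Mcts2 spanned 42.0% to 72.3% and those of Zrsr1 31.0% to 66.8%. The 7 exceptions in Nnat, all above 80%, lie 1774 to 1982 bases upstream of its start, within the last exon of Blcap. Covered cytosines began 294 bases before the Mcts2 start and 103 bases before the Zrsr1 start, so the farther upstream sequence of these 2 genes was not read. In Nnat no cytosine was covered from 1774 bases before to 20 bases after the start, these ends excepted. The levels of the Nnat promoter and start given below therefore rest on cytosines inside the gene.

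The level was intermediate in each annotated part of the 3 genes that held covered cytosines. The untranslated part after the coding sequence held none in any of the 3. Coverage ended 464 bases after the start in Mcts2, 2248 in Zrsr1 and 1634 in Nnat, of 799, 4492 and 2448 bases. Mcts2, which has 1 exon at chr2:152687148-152687946, was at 61.9% ± 4.42 (SD, n = 8) over 47 cytosines before the start site and at 54.8% ± 15.1 over 16 cytosines inside the gene. The 10 covered cytosines of its 5′ untranslated part were at 56.4% ± 15.2 and the 6 of its coding part at 52.3% ± 15.1. Zrsr1, also of 1 exon, lies at chr11:22972005-22976496. Its 97 cytosines in the untranslated part before the coding sequence were at 51.8% ± 3.58, and its 38 coding cytosines, between 1665 and 2248 bases after the start, were at 50.8% ± 3.78. The 6 cytosines before its start site were at 57.6% ± 8.12. Nnat, at chr2:157560078-157562525, was at 56.3% ± 15.1 over 17 untranslated cytosines of its first exon, at 60.1% ± 6.57 over 21 coding cytosines and at 61.6% ± 5.33 over 15 intronic cytosines. The 8 cytosines upstream of Nnat, all in the last exon of Blcap, were at 91.1% ± 1.98.

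The lowest cytosine of each region lay inside the gene. It was 318 bases after the start of Mcts2, in the coding part, with a mean of 42.0% at 10 to 19 reads. In Zrsr1 it was 2023 bases after the start, in the coding part, at 31.0%, and in Nnat 1370 bases after the start, in an intron, at 49.3%. The highest was at 72.3% in Mcts2, 168 bases before the start, and at 66.8% in Zrsr1, 1136 bases after it, in the untranslated part. In Nnat the highest, at 97.2%, was the cytosine of the last exon of Blcap that lies 1882 bases before the start.

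**Figure D2:**
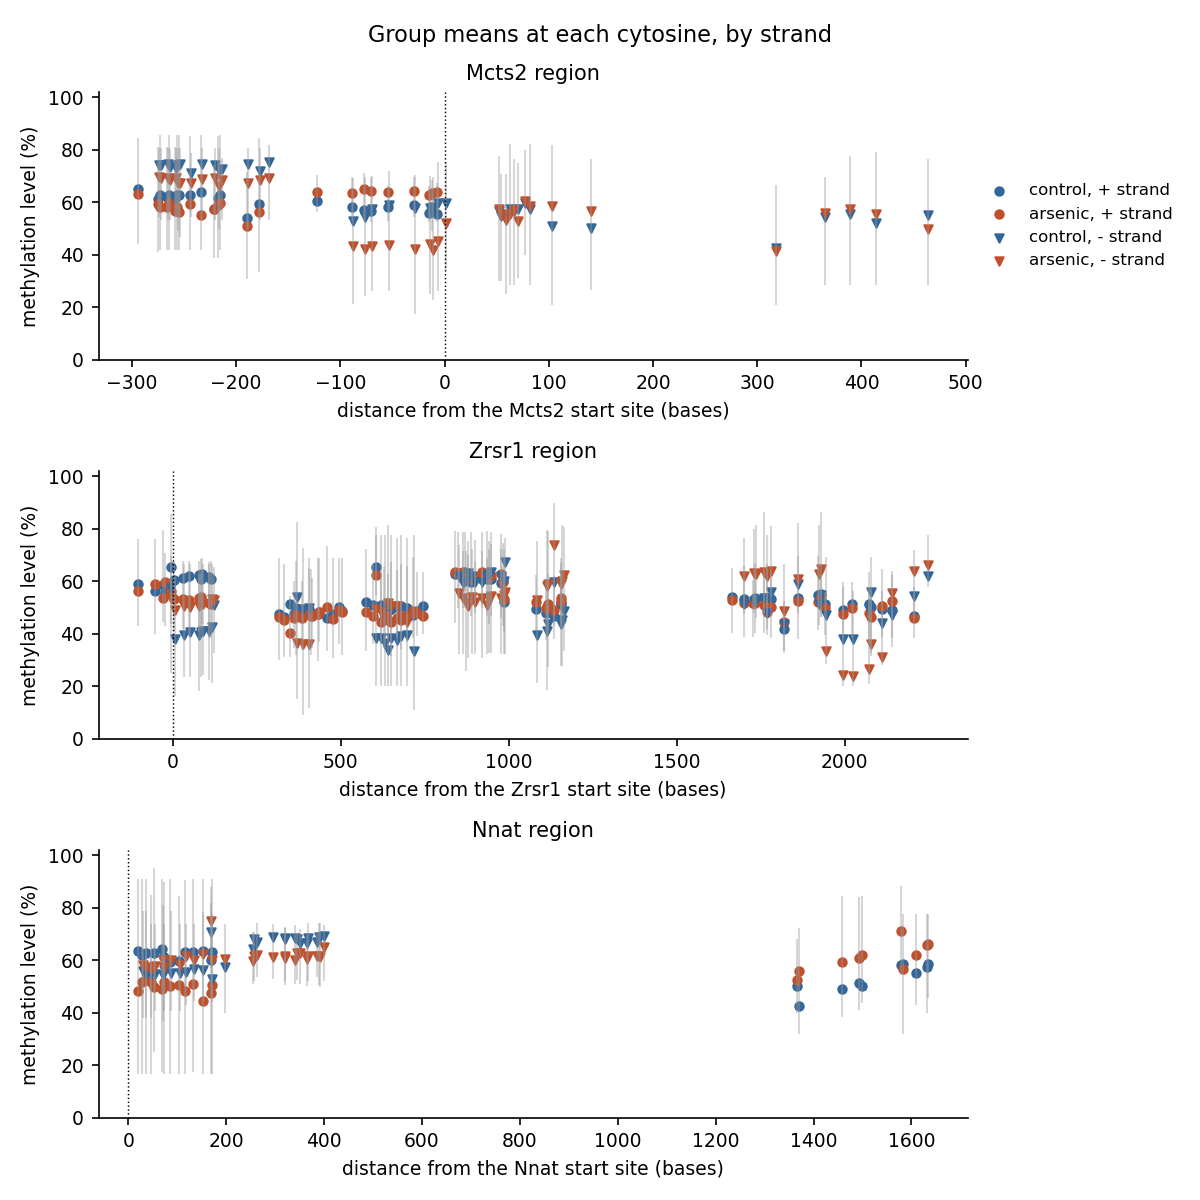
Methylation level (%) of each covered cytosine against its distance in bases from the start site (dotted line), for the Mcts2, Zrsr1 and Nnat regions, leaving out the 8 cytosines in the last exon of Blcap. Circles are the plus and triangles the minus strand, blue and orange are the control and arsenic means, and grey lines span the lowest to the highest sample. Neighbouring cytosines of the same strand sit at nearly the same level, while their samples spread widely.

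Cytosines that share an MspI fragment and a strand moved together. The 265 cytosines fell into 30 such stretches, 28 of them with at least 3 cytosines. Within a stretch of a sample the cytosines varied by a median SD of 3.64 points, while the same stretch varied by a median SD of 10.5 points over the 8 samples. By gene the latter was 15.0 points over 5 stretches of Mcts2, 10.3 over 17 of Zrsr1 and 10.8 over 6 of Nnat. The plus strand of the Mcts2 fragment from 294 to 178 bases before the start, with 15 cytosines, was at 40.7, 49.8, 82.9 and 72.8% in control samples 1 to 4 and at 68.1, 44.9, 67.0 and 51.7% in arsenic samples 1 to 4. The first 14 cytosines of Nnat on the plus strand, 20 to 170 bases after the start, were at 67.8, 58.4, 89.2 and 31.6% in the control samples and at 17.4, 43.6, 57.5 and 80.8% in the arsenic samples. This was the widest range of the 28 stretches, 71.8 points, and the narrowest was 8.04 points, upstream of Nnat. The groups overlapped in 27 of the 28 stretches.

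The exception was the minus strand of Zrsr1 from 1943 to 2112 bases after the start, in the coding part. Its 6 cytosines averaged 34.4, 35.7, 50.02 and 61.8% in control samples 1 to 4 and 26.2, 31.7, 26.4 and 32.6% in arsenic samples 1 to 4. All 4 arsenic samples were below the control samples, the nearest by less than 2 points. On the plus strand of the same fragment the control samples were at 49.5, 57.8, 49.0 and 49.0% and the arsenic samples at 49.2, 58.6, 38.4 and 51.1%, and there the groups overlapped. This stretch was chosen for its values and therefore was not tested.

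The strands of 1 fragment often disagreed. Of 11 fragments read on both strands, the difference between strands took both signs over the 8 samples in all 11. The largest gap of a fragment was 24.7 to 52.4 points. In the Mcts2 fragment that ends at the start site, arsenic sample 1 had 68.5% on the plus and 24.8% on the minus strand, and control sample 1 had 55.5% and 69.8%. Over 93 CpGs read on both strands, the median gap between strands was 14.1 points in the 3 regions and 12.5 points at the 16 such CpGs of 20 to 80% in the rest of the hosts. Among all CpGs of 20 to 80% it was 11.0 points. The variance of the level between samples of a group, relative to counting error, had a median of 2.81 at cytosines of 20 to 80% in the 3 regions and 1.78 at all such cytosines of the series. Whether repeated reads of few molecules have a part in this spread was not tested.

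**Figure D3:**
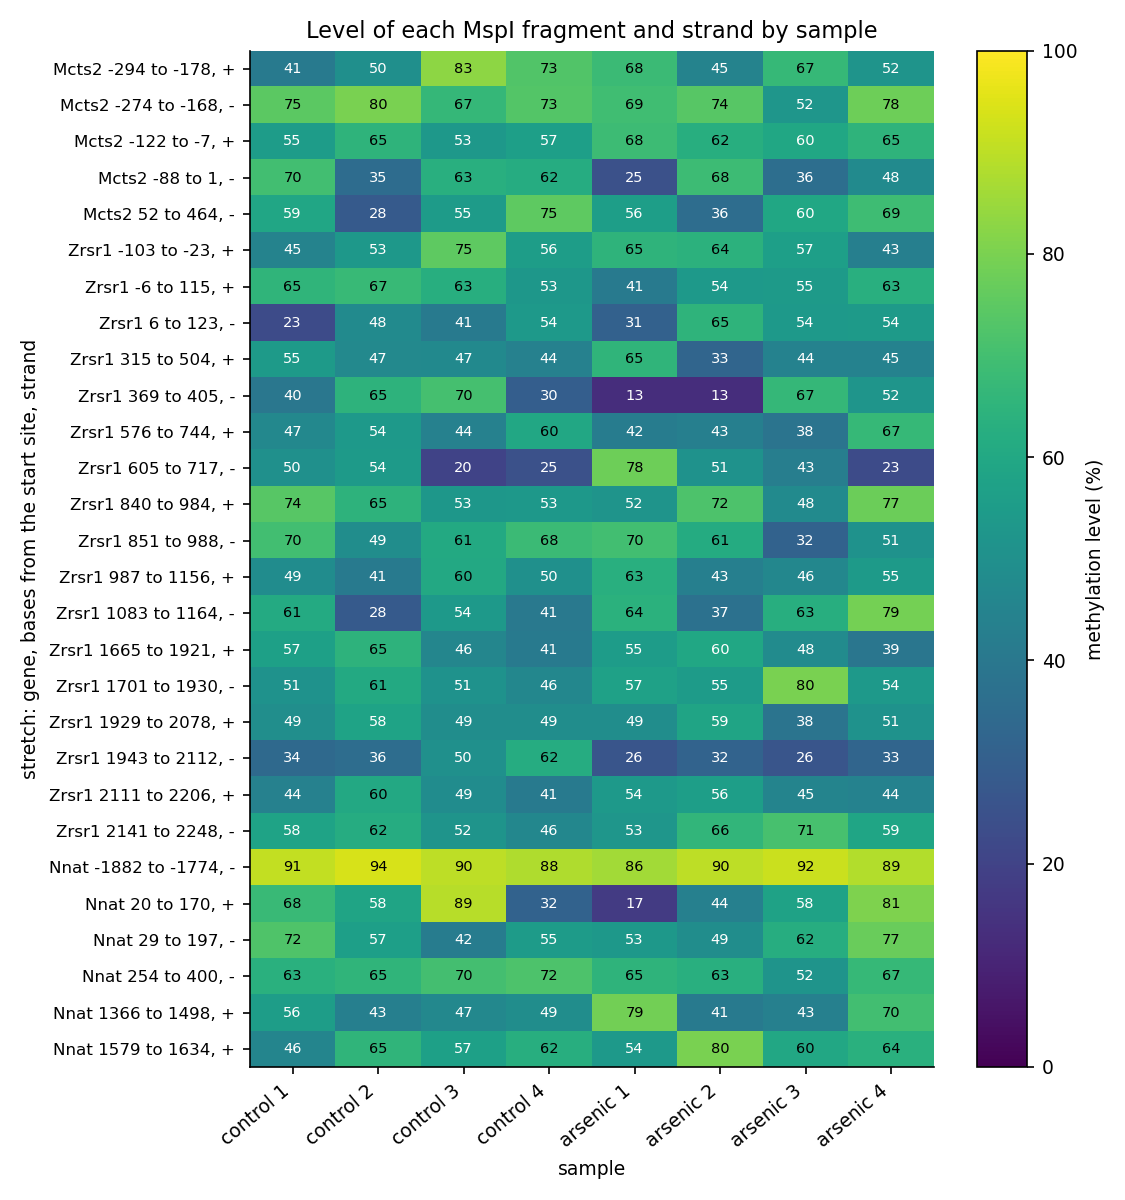
Methylation level (%, colour and printed value) of each stretch of at least 3 cytosines that share an MspI fragment and a strand, by sample. Rows give the gene, the first and last base from its start site and the strand, and single stretches range from 12.9% to 94.1% without a steady difference between the 4 control and 4 arsenic columns.

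The promoters of Commd1 and Blcap were unmethylated, and the level along the bodies of the hosts varied with position. The start of Commd1, from 1 kb before to 500 bases after the start site, was at 2.26% ± 3.25 (SD, n = 8) over 33 cytosines, and that of Blcap at 1.16% ± 1.28 over 31 cytosines. The same stretch of H13 was not covered, so its promoter was not read. Past that stretch, 4 intronic cytosines within its first 1 kb were at 2.38% ± 4.68. Promoters from 1 kb upstream to 100 bases downstream, over 12029 genes with at least 3 covered cytosines, had a median level of 1.78%, and 5.47% of them were at 40 to 70%. Those of Mcts2, Zrsr1 and Nnat were among these, at 61.0%, 53.4% and 56.4%, while Commd1 was at 2.98% and Blcap at 1.16%. In each of the 8 samples the 3 intronic genes were above the starts of both hosts.

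Along H13 (chr2:152669422-152708668), the 13 cytosines nearest to Mcts2 on either side, at about 6 kb before and 9 kb after its start, were at 86.1% ± 3.76 (SD, n = 8). Farther upstream, between 12 and 16 kb before Mcts2, 20 cytosines in introns of H13 were at 45.3% ± 3.56, with single cytosines from 0.593% to 77.0%. Most of these cytosines were intermediate, as in Mcts2. The lowest were at 0.593% and 8.37%, and the others lay between 27.1% and 77.0%, against 42.0% to 72.3% in Mcts2. Coding exons of H13 were at 92.6% ± 2.03 over 7 cytosines. Its last exon changed along its length, with 43.5% ± 3.37 over 15 cytosines under 20 kb from the Mcts2 start and 1.78% ± 0.691 over 38 cytosines beyond. Single cytosines ranged from 8.84% to 79.9% in the nearer part and from 0% to 11.6% in the farther one.

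Commd1 (chr11:22899728-22984539) held few covered cytosines in its body. An alternative first exon of Commd1, at chr11:22972651-22972866 on the minus strand, lies within the Zrsr1 region, and the 15 covered cytosines there were at 49.1% ± 7.05 (SD, n = 8), like the rest of Zrsr1. Outside the Zrsr1 region and beyond the first 1 kb of the host, 13 cytosines of Commd1 were at 66.1% ± 2.76. Single ones among them ranged from 29.0% to 91.5%. Blcap (chr2:157556362-157566361) has 2 exons on either side of Nnat. Its last exon was at 91.4% ± 2.16 over all 27 covered cytosines, 8 of which also count to the Nnat region, and its first exon at 1.05% ± 2.66 over 10 cytosines. Nnat thus sat between a methylated exon about 2 kb to 1 side and an unmethylated promoter about 6 kb to the other.

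**Figure D4:**
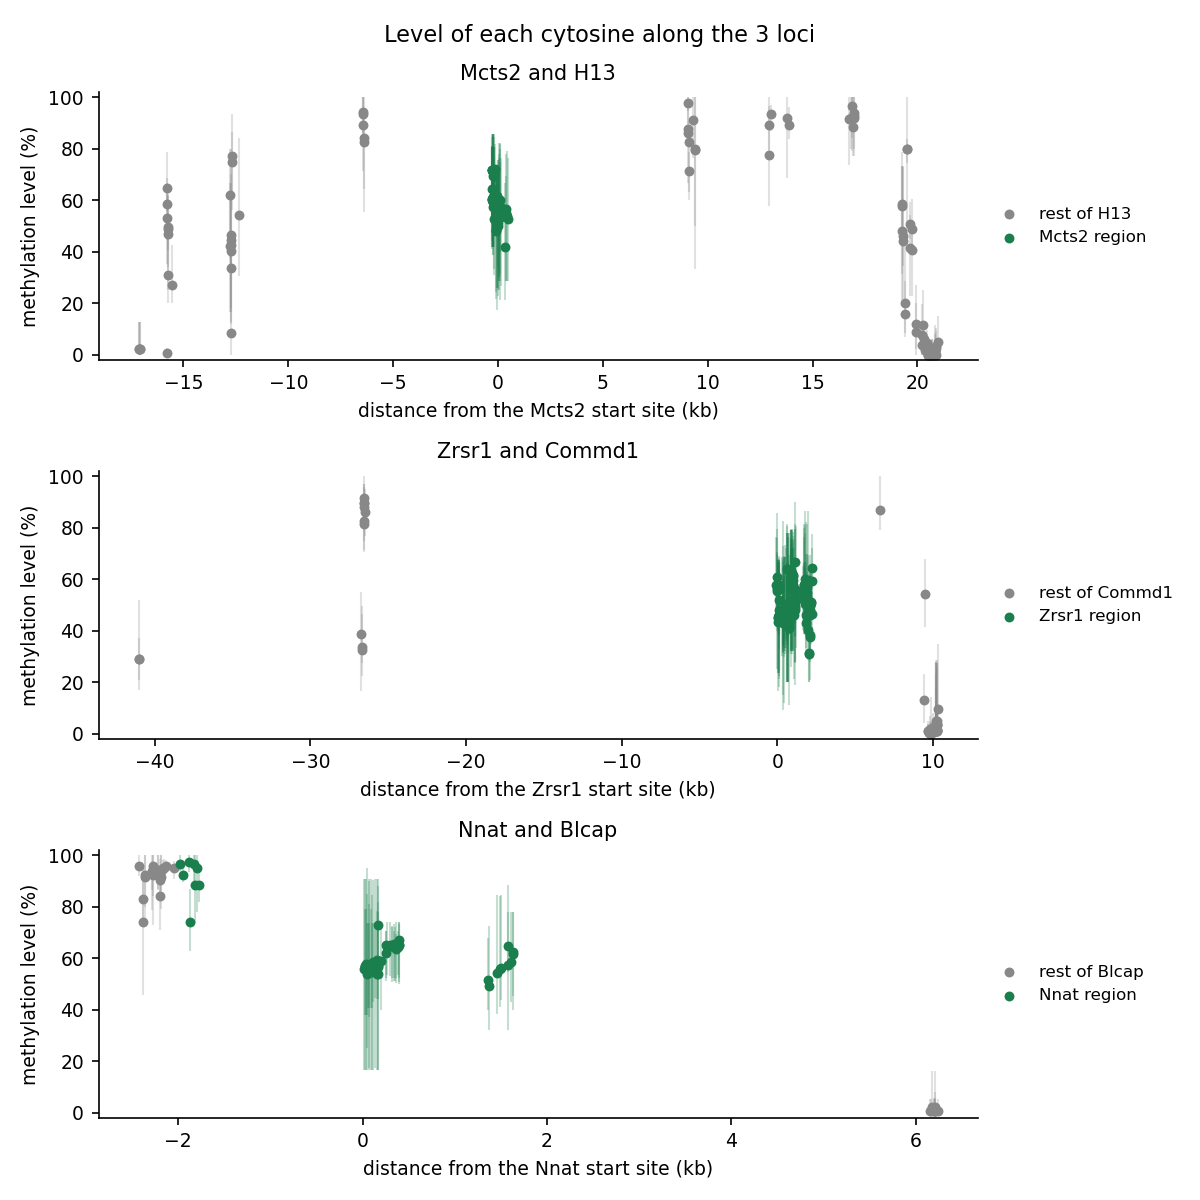
Mean methylation level (%) over the 8 samples of each cytosine along the 3 loci, against the distance in kb from the start site of the intronic gene. Green points are the gene region, grey points the rest of the host, and lines span the lowest to the highest sample. The gene regions sit at intermediate levels, the promoters of Commd1 and Blcap near 0%, and the rest of the hosts holds cytosines from near 0% to above 80%.

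Compared over the whole host, Mcts2 was 21.9 points ± 5.77 (SD, n = 8) above the rest of H13 and Zrsr1 was 32.1 points ± 3.94 above the rest of Commd1. Both genes were higher in 8 of 8 samples (two-sided exact sign-flip permutation test, p = 0.00781, the smallest that 8 samples allow, and 0.0117 after Benjamini-Hochberg adjustment over 3 loci). Nnat was 3.14 points ± 6.65 above the rest of Blcap and higher in 5 of 8 samples, which did not pass the test (exact p = 0.227, adjusted 0.227). Both the sign and the call of this difference depended on which cytosines were counted, and it passed the test in 6 alternatives, lower in Nnat in 3 and higher in 3. It was -7.68 points when only 1 kb upstream of Nnat was taken, which moves the cytosines of the Blcap exon to the host (exact p = 0.0391), and 28.0 points when 2 kb upstream of Blcap were added (exact p = 0.00781). The rest of the hosts held 90 cytosines under 10% and 49 above 80% among its 183, and in H13 another 32 of 103 were at 20 to 80%, so its mean depends on which of them are counted.

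The comparison of the arsenic with the control group asked whether gestational exposure of the dams went along with a change at these genes in the cells of their sons. For Mcts2 the control mean was 61.6% ± 7.65 and the arsenic mean 58.7% ± 3.56 (SD, n = 4 each), a difference of -2.92 points (two-sided exact permutation test, p = 0.514, adjusted over 6 regions 0.771), with a 95% interval from inverting the test of -14.0 to 11.4 points. For Zrsr1 the means were 51.8% ± 2.05 and 51.8% ± 2.44, with a difference of 0.030 points (exact p = 0.971, adjusted 0.971, interval -5.2 to 4.0). Nnat was at 64.6% ± 4.47 and 62.4% ± 9.01, a difference of -2.19 points (exact p = 0.743, adjusted 0.891, interval -13.4 to 16.7). None of the 3 differences exceeded the spread between samples. The interval of Zrsr1 was the narrowest, and those of Mcts2 and Nnat leave room for differences of more than 10 points.

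In the rest of the hosts the differences were -0.854 points in H13 (exact p = 0.171, adjusted 0.514), 1.44 points in Commd1 (exact p = 0.486, adjusted 0.771) and -2.20 points in Blcap (exact p = 0.171, adjusted 0.514). The difference between gene and host did not change beyond its spread either. It changed by -2.07 points for Mcts2 and H13, by -1.41 points for Zrsr1 and Commd1 and by 0.0083 points for Nnat and Blcap (exact p = 0.686, 0.914 and 1, each adjusted to 1 over 3 loci). Without arsenic sample 3 the change of Zrsr1 and Commd1 was 1.43 points and the difference of the rest of Commd1 was -0.247 points.

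Differentially methylated cytosines (DMCs) were called by a likelihood-ratio test on the reads of each group, at q of at most 0.01 and a difference of at least 10 points. The test pools the reads of a group, so it counts reads and not samples as replicates. Over the whole series 0.552% of cytosines were DMCs, and among cytosines of 20 to 80% the share was 0.948%. The 265 cytosines of Mcts2, Zrsr1 and Nnat held 0 DMCs. At an unadjusted p under 0.05 the same test called 62 of the 265, where 17.8% of all cytosines were called, and limma called 2, where 5.11% of all cytosines were called. limma found 0 DMCs in the 3 regions and in the whole series. The likelihood-ratio test scaled by the spread between samples (overdispersion scaling) also found 0 in both. The count of 0 depended on single samples. Without control sample 2 there were 7 DMCs, of which 6 lay on the minus strand of Mcts2 within 1 fragment and were lower in the arsenic group, and without arsenic sample 2 there were 7, of which 5 lay on the same strand and fragment. This is the stretch from 88 bases before to 1 base after the Mcts2 start, with 69.8, 35.3, 63.0 and 61.9% in control samples 1 to 4 and 24.8, 68.4, 36.0 and 47.8% in arsenic samples 1 to 4. Control sample 2 was the lowest control sample there and arsenic sample 2 the highest arsenic sample. On the plus strand of the same fragment, 9 cytosines had a control mean of 57.6% and an arsenic mean of 63.9%. The arsenic group was thus higher and not lower on that strand, and the groups overlapped. Over the whole series the fit without control sample 2 called 11796 of 2130064 cytosines, and that without arsenic sample 2 called 11601.

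The groups did not overlap at 6 of the 265 cytosines, 5 in Zrsr1 and 1 in Nnat, 3 of them lower and 3 higher in the arsenic group. Over the series this was so at 2.10% of all cytosines, with 1.21% lower and 0.892% higher, and at 2.88% of those of 20 to 80%. Of the Zrsr1 cytosines, 2 of the lower ones, 1995 and 2079 bases after the start, belong to the minus-strand stretch described above. The Nnat cytosine, 1579 bases after the start, was at 54.5, 57.9, 57.1 and 62.5% in the control samples and at 63.6, 88.2, 66.7 and 66.7% in the arsenic samples.

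The rest of the hosts held 2 DMCs among 183 cytosines, 1 lower and 1 higher in the arsenic group, where 0.323% and 0.228% of all cytosines were called in these directions. The lower one lay in an intron of H13 at position 152674420 of chromosome 2, 12728 bases before Mcts2. It was at 66.7, 56.0, 50 and 62.5% in control samples 1 to 4 and at 18.8, 18.2, 46.2 and 53.3% in arsenic samples 1 to 4 (q = 0.00242, at 20 to 44 reads). Arsenic samples 1 and 2 were far below all control samples, while arsenic sample 4 was within their range. On the plus strand of the same CpG the control samples were at 29.4, 16.7, 38.5 and 33.3%. The arsenic samples were at 33.3, 45.5, 34.6 and 36.8% there, at 11 to 26 reads. The group difference on that strand was 5.42 points, so it was higher and not lower in the arsenic group. The higher one lay in the first coding exon of Commd1 at position 22982176 of chromosome 11. It was at 0% in all 4 control samples, 0 of 141 reads, which allows up to 2.13%, and at 11.1, 0, 27.3 and 0% in arsenic samples 1 to 4 (q = 0.00165). Arsenic sample 3 carried most of it, and it stood apart over the whole minus strand there, with 27.0% over 12 cytosines against 0% to 1.68% in the other samples. On the plus strand of the same exon arsenic sample 3 was at 0%. There control sample 2 stood apart, with 8.47% over 11 cytosines against 0% to 1.04% in the other samples. Of the 8 fits that left out 1 sample, the Commd1 call was kept in 6 and lost without arsenic sample 1 or 3, and the H13 call was kept in 5 and lost without control sample 1, arsenic sample 1 or arsenic sample 2. limma called neither (adjusted p = 0.972 for both).
DMC of H13, chr2:152674405-152674434, minus strand: tgggagagcccgttCGttgcccagcttgag
DMC of Commd1, chr11:22982161-22982190, minus strand: ctttcacggacactCGggtgtcacggagga
The capitals mark the CpG, shown because these are the 2 cytosines at the 3 loci that passed the rule.

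The levels of Mcts2, Zrsr1 and Nnat were set beside other imprinted genes whose starts are known to be methylated on the maternal allele, over the stretch from 1 kb before to 500 bases after the start site. On this stretch Mcts2 was at 60.1%, Nnat at 59.8% and Zrsr1 at 50.4%. Nap1l5 and Peg13, which also lie within introns of a host gene, were at 55.8% ± 8.85 and 52.9% ± 7.65 (SD, n = 8). Outside host genes, Peg3, Snrpn, Peg10 and Plagl1 were at 48.5% ± 18.5, 51.9% ± 4.58, 59.1% ± 8.68 and 62.8% ± 11.99. Mest was not covered there. All 3 intronic genes thus fell within the range of these 6 genes, and the spread of Nnat between samples, 9.58 points, was also within theirs.

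As background, such imprints are known to be erased in male germ cells at this age. The starts of the 3 genes were at 50.4% to 60.1% in these samples, not near 0%. The stretch 2 to 4 kb upstream of H19, where both alleles are known to carry methylation in male germ cells but 1 allele does in somatic cells, was at 66.3% ± 8.31 (SD, n = 8) over 4 cytosines. Germline genes whose promoters are known to be methylated in somatic cells were also high. Over the 6 of 8 listed promoters with at least 3 covered cytosines (Ddx4, Dazl, Mael, Slc25a31, Stk31 and Tex101), the mean level was 79.9% to 89.5% in single samples, and single genes ranged from 78.7% for Mael to 94.9% for Dazl. The group means of this list were 86.8% ± 1.94 in the control and 83.8% ± 2.87 in the arsenic samples (SD, n = 4 each). A level in a pool does not tell a mixture of cells from partial methylation within cells. The part of other cell types in the levels reported here was not tested.

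**Figure D5:**
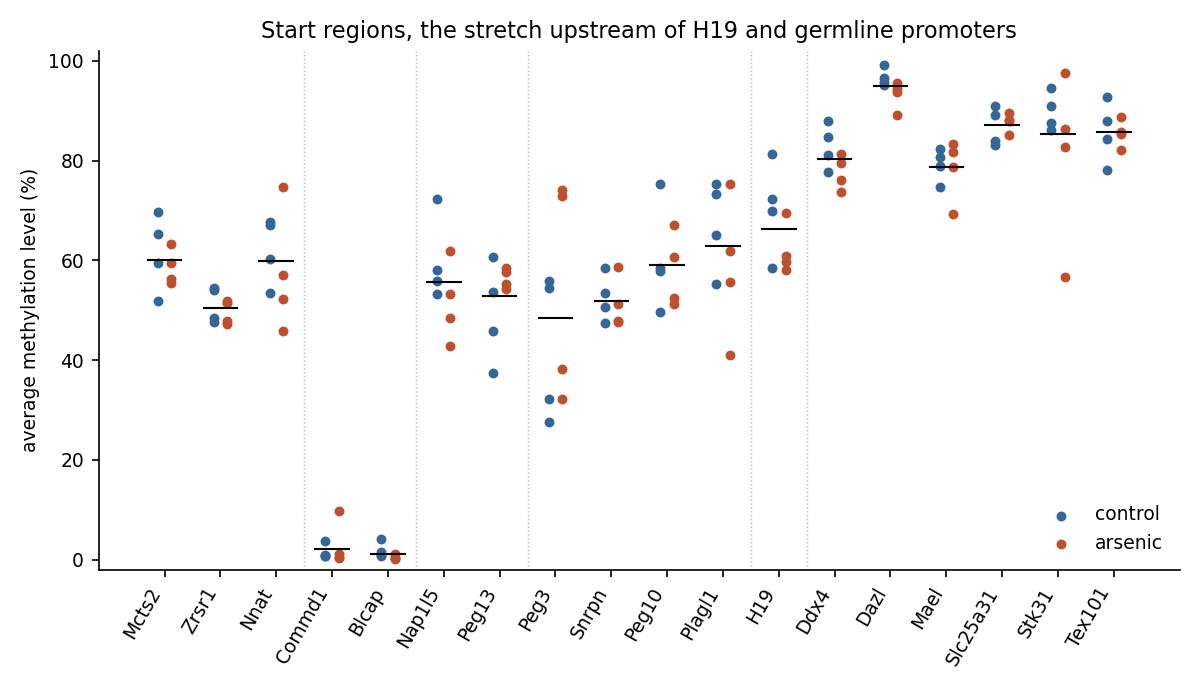
Average methylation level (%) by sample (blue control, orange arsenic, bar mean of 8) at the start regions of the 3 intronic genes, of Commd1 and Blcap, and of 6 other maternally methylated genes, at the stretch upstream of H19, and at 6 germline promoters. The imprinted starts lie between 48.5% and 62.8% on average, the host starts under 3% and the germline promoters above 78%.

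Between samples the 3 genes did not rise and fall together measurably. Over the 8 samples Mcts2 and Zrsr1 had Pearson's r = -0.319 (permutation p = 0.433) and Spearman's rho = -0.357 (permutation p = 0.389), Mcts2 and Nnat r = 0.182 (permutation p = 0.667) and rho = 0.143 (permutation p = 0.752), and Zrsr1 and Nnat r = 0.235 (permutation p = 0.574) and rho = 0.0238 (permutation p = 0.977). With the 2 samples farthest from the median left out, r was 0.208, 0.677 and -0.0669. The mean of the 3 genes against the 6 germline promoters gave r = 0.494 (permutation p = 0.218) and rho = 0.667 (permutation p = 0.0831), and r = 0.496 without those 2 samples. Against the stretch upstream of H19 it gave r = -0.128 (permutation p = 0.751) and rho = 0.119 (permutation p = 0.793), and against the mean of the other 6 imprinted starts r = 0.0813 (permutation p = 0.844) and rho = 0 (permutation p = 1). Without the 2 farthest samples these were 0.0662 and -0.248. After adjustment over the 6 relations the lowest p was 0.844 for r and 0.499 for rho.

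Promoters whose levels over the 8 samples were nearest to those of the 3 genes belonged to no imprinted gene listed here. The smallest mean absolute difference from the Mcts2 promoter was 2.79 points, for Klk5, followed by Kcnk10 at 3.16 and Il6ra at 3.21. For Zrsr1 the nearest were Magix at 3.46 points, Rps6ka6 at 3.49 and Tex14 at 3.62. Nnat, with the more variable promoter, had Rnd2 at 7.44 points, Egfl8 at 8.81 and Gm15401 at 9.26. With 658 promoters at 40 to 70%, such likeness is a description only.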

How the data were processed

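RRBS was performed by the authors on 4 control and 4 arsenic samples. They trimmed the reads with Trim Galore 0.6.5, mapped them to mm10 with Bismark 0.22.3 and joined the samples with methylKit 1.22.0 (versions from the submitters' processing notes), keeping strands separate and cytosines with at least 10 reads in every sample. The deposited values are counts of all reads, methylated reads and unmethylated reads per cytosine, without normalization. Reads were from C3H/HeN mice, and strain variants at CpGs were not analysed here.

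Cytosines on chromosomes 1 to 19, X and Y were used. Samples held 96428439 to 133406260 reads on cytosines, with a median coverage of 31 to 44 and 10 to 231 reads at a cytosine of the 3 genes, so single cytosines are imprecise. Region levels were compared between groups with two-sided exact permutation tests over samples (70 assignments, smallest p 0.0286) and between gene and host with sign-flip tests (256), adjusted by Benjamini-Hochberg. DMCs were called over all cytosines by a likelihood-ratio test on pooled counts, in place of methylKit's logistic regression, with q of at most 0.01 and 10 points, and by limma 3.58.1 on log2 ratios with a pseudocount of 1. The tests across cytosines were tested on simulated counts that differed between samples of a group by counting error only. That simulation cannot show how the calls behave under the wider spread between these samples. Computations ran in R 4.3.3 and in Python 3.11.15 with scipy 1.17.1, numpy 2.4.6, biopython 1.88, pandas 2.3.3 and matplotlib 3.10.9.

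Alternatives were a coverage of at least 20, reads pooled over cytosines, both strands summed, CCGG cytosines left out, 1 kb upstream, 2 kb added to the hosts, overdispersion scaling, a Cochran-Mantel-Haenszel test, a replicate block and leaving out each sample. Weighting fragments and strands alike and leaving out the last exon of Blcap were added after the data were seen. The genes, lists and rules were chosen with earlier results of these data known. Named cytosines were, in each region, the nearest to the start site, the lowest and the highest in mean level, and all DMCs, while cytosines and stretches whose groups do not overlap were named after their values were seen. A start site is that of the curated RefSeq transcript with the lowest accession number. Control and arsenic samples with the same replicate number did not deviate together (correlations of deviations -0.00042 to 0.0046), so the numbers were not read as pairs. Nothing in the labels ties the pools to separate litters, and p-values measure the spread between these pools.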

Additional observations from a re-analysis of the deposited data

Results flagged for a closer look

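In 5 of 74 groups of 4 samples examined, 1 sample stood apart from the other 3, where chance gives about 3.7. In the rest of Commd1, arsenic sample 3 had an average level of 25.4%, and the other arsenic samples had 18.2% to 18.98%. The difference between Nnat and the rest of Blcap was 15.6 points in arsenic sample 4 and -2.30 to 0.104 points in the other arsenic samples. On the plus strand of Zrsr1 from 576 bases after the start, arsenic sample 4 was at 66.9% and the others at 38.3% to 43.0%. On its minus strand from 1701 bases after the start, arsenic sample 3 was at 80.03% and the others at 53.7% to 57.1%. On its plus strand from 1929 bases after the start, control sample 2 was at 57.8% and the other control samples at 49.0% to 49.5%.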

How the results depend on the processing

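Coverage limits the single cytosines, and the small number of pools and the spread between them limit the region averages. No difference between arsenic and control in the 6 regions passed the test under any alternative run, so a sign that turned says little. Mcts2 stayed above the rest of H13, and Zrsr1 above the rest of Commd1, past the test in all alternatives run (20.5 to 23.1 and 31.7 to 33.5 points with single samples left out). Taking 1 kb upstream or adding 2 kb to the hosts left both values unchanged (21.9 and 32.1 points), so these settings were no check here. Nnat minus the rest of Blcap did not pass the test with all cytosines as defined but passed it in 6 of the alternatives that follow, all but that without the last exon of Blcap and those without single samples. It was -26.3 points at a coverage of at least 20, -4.20 with reads pooled over cytosines, -7.68 with 1 kb upstream, -1.03 without the last exon of Blcap, 14.3 with both strands summed, 7.09 with CCGG left out and 28.0 with 2 kb upstream of Blcap included, and 1.36 to 4.33 with single samples left out. The 1 kb setting moves 8 cytosines from gene to host. Adding 2 kb upstream of Blcap brings 21 cytosines into the host, from a cluster of 31 with a mean level of 1.16%. Otherwise the cause was not tested.

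For arsenic minus control, the sign turned at a coverage of at least 20 for Zrsr1 (-0.969) and for the difference of Nnat and Blcap (-0.628), with reads pooled for Mcts2 (0.041), for the difference of Mcts2 and H13 (0.275) and for Zrsr1 (-1.16), with both strands summed for the difference of Mcts2 and H13 (0.511) and for Zrsr1 (-0.814), with 1 kb upstream for the difference of Nnat and Blcap (-0.202), and with fragments and strands weighing the same for Zrsr1 (-0.253). The cause was not tested. With single samples left out the differences were -6.14 to -0.245 for Mcts2, -0.680 to 1.19 for Zrsr1, -6.51 to 0.382 for Nnat, -1.22 to -0.555 for the rest of H13, -0.247 to 2.32 for the rest of Commd1 and -3.04 to -1.43 for the rest of Blcap. The differences between gene and host then changed by -5.08 to 0.873 for Mcts2 and H13, -2.66 to 1.43 for Zrsr1 and Commd1 and -4.14 to 1.82 for Nnat and Blcap.

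The replicate block left the differences of the 6 regions as they were (-2.92 points for Mcts2), with no call changed. With 4 pairs the smallest p is 0.125. The block by a Cochran-Mantel-Haenszel test gave 0 DMCs in the 3 genes and 2 in the hosts, where 8029 of 2130064 cytosines of the series were called. DMCs in the hosts numbered 0 with overdispersion scaling and with limma, but both tests also called 0 cytosines in the whole series. With both strands summed the hosts held 0 as well, where 6700 of 1551623 CpGs of the series were called. With single samples left out they held 1 to 8, with 8 without arsenic sample 2, all in Commd1. In the 3 genes DMCs then numbered 0 to 7, with 7 without control sample 2 or arsenic sample 2. Over the whole series the fits without single samples called 11533 to 13107 of 2130064 cytosines.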
